A study of Homo sapiens with 4 samples.

Results

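miR-335 is a microRNA (miRNA) cut from a hairpin within the imprinted gene MEST, and it was followed here as its 2 mature strands, miR-335-5p and miR-335-3p. They are 2 of the 1345 mature miRNA rows of the table, found by name, and they were also selected on the measured values of these libraries, since their levels, arm ratio and change between the groups were already known. Those values are therefore given as a description, with no p-value. Small RNA was sequenced from HCT116, a human colorectal carcinoma cell line, in which doxycycline switches on a short hairpin RNA (shRNA) that targets SAE2, the catalytic subunit of the enzyme that activates the protein modifier SUMO. Each of 2 lines with independent shRNAs, sh1 and sh2, gave 1 plus and 1 minus library, read here as with and without doxycycline.

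The 2 plus libraries were replicate 1, whose label carries no shRNA number and which falls to the sh1 line by elimination, and replicate 2, labelled sh2. The 2 minus libraries were replicate 1, labelled sh1, and replicate 2, labelled sh2. The labels give 1 protocol for all 4 libraries, with doxycycline for 3 days, so the reading of minus as uninduced rests on that word alone. All groups share the HCT116 background and an integrated shRNA, and a library of doxycycline-treated cells with no shRNA against SAE2 was not analysed here. These libraries hold no SAE2 mRNA, and how far SAE2 was lowered was not checked. Nothing in the labels says that a line had more than 1 culture per condition. The spread within a group is therefore that between 1 library of each line. Differences of line, culture and library preparation cannot be told apart in it.

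A miRNA hairpin is cut into a short duplex, of which either strand can be loaded into an Argonaute protein and guide it to messenger RNAs that pair with the seed, bases 2 to 8 of the strand. MEST encodes a protein of the hydrolase fold family and is expressed in many tissues from the paternal allele alone. miR-335 is best known as a suppressor of metastasis in breast cancer cells, where its 5p strand acts on the transcription factor SOX4 and the matrix protein tenascin-C.

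The mature strands are shown because everything below is counted on them, 5′ to 3′ with the seed in capitals, from RefSeq on GRCh38.p14.
miR-335-5p: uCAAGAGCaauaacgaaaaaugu
miR-335-3p: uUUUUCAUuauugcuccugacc
miR-335-5p has 23 bases and lies on the plus strand at chr7:130496126-130496148, and miR-335-3p has 22 bases and lies at chr7:130496162-130496183. Both begin with U. Neither seed occurs at bases 2 to 8 of any of the other mature names in the RefSeq table of 2370, so no other miRNA in that table shares either seed.

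The hairpin of 94 bases is shown to place the arms within it, with both mature strands in capitals, at chr7:130496111-130496204.
MIR335 hairpin: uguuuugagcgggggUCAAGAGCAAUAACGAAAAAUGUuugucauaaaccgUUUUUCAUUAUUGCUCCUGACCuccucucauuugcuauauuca
In the predicted minimum free energy fold of this sequence, 18 of the 23 bases of miR-335-5p and 18 of the 22 bases of miR-335-3p pair with the other arm. Of the first 4 bases of each strand, 3 are paired in miR-335-5p, with 1 G-C pair, and 4 are paired in miR-335-3p, with 0 G-C pairs. The arms are poor in G and C, at 30.4% for miR-335-5p and 36.4% for miR-335-3p against a median of 47.8% over the 550 tested strands with a sequence in the RefSeq table. In GENCODE release 29 the hairpin lies in an intron of 13 of the 17 annotated MEST transcripts, which is intron 2 in 12 of them, and outside the other 4. It starts 588 bases after the upstream exon and ends 951 bases before the downstream one, in no exon of MEST. An antisense gene, AC007938.2 (ENSG00000270823.1), overlaps the hairpin on the minus strand. MEST mRNA is not measured by these libraries.

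Normalised read counts summed to 9833885 and 10519207 in plus replicates 1 and 2 and to 9847531 and 9700472 in minus replicates 1 and 2. miR-21-5p alone took 19.9% to 21.7% of each total. Of strands that mark colon epithelium 8 were tested, with sums of the list at 154382 and 160892 in the plus and 139987 and 141414 in the minus libraries. The most abundant, miR-200c-3p, miR-141-3p and miR-194-5p, averaged 132207, 14084 and 5619 in the plus libraries. The sums for blood were 1026 and 1197 in the plus libraries against 995 and 1216 in the minus libraries, led by miR-486-5p, miR-451a and miR-142-3p at 926, 112 and 33.9 in the plus libraries. Muscle strands summed to at most 15.3 in any library, the liver strand miR-122-5p stood between 46.3 and 58.2, and the neuronal miR-124-3p at 31.8 and 22.5 in the plus libraries against 13.1 in both minus libraries. In the limma fit described below, 3 of the 8 epithelial strands rose and 0 fell, where 13.4% of all 709 tested miRNAs rose and 15.1% fell. At an unadjusted p under 0.05 in that fit, 4 rose and 0 fell. The rises were miR-192-5p, miR-194-5p and miR-215, with log2 changes of 0.78, 0.72 and 0.71. The call of miR-194-5p was lost without either plus library, without the level filter and without the mean-variance trend. Whether those of miR-192-5p and miR-215 stood in such fits is not given here. miR-200c and miR-141 did not pass, at 0.13 and 0.17 for their 3p and −0.29 and −0.26 for their 5p strands. The 4 tested blood strands, the liver strand and miR-124-3p did not pass, of which miR-124-3p alone had an unadjusted p under 0.05.

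miR-335-5p was the more abundant arm in every library and was lower in the plus libraries. It stood at 12015 and 13514 normalised counts in plus replicates 1 and 2, against 16684 and 15824 in minus replicates 1 and 2. Both plus libraries lay below both minus libraries, as in 240 of 709 tested miRNAs, or 33.9%, and the gap between the groups was wider than the gap within either. The group means were 12765 ± 1060 in the plus and 16254 ± 608 in the minus libraries (SD, n = 2 each), which is 21.5% lower. On the log2 scale the difference, plus over minus, was −0.35 (SE 0.09). This SE is that of the limma fit described below, which borrows from the spread of other miRNAs. Without the mean-variance trend of that fit it was 0.127. In bulk libraries, fewer cells with the miRNA and less of it per cell cannot be told apart.

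miR-335-3p was lower in the plus libraries by a wider margin. It stood at 3655 and 4261 normalised counts in plus replicates 1 and 2, against 7596 and 7245 in minus replicates 1 and 2. The plus values again did not overlap the minus values, and the highest plus value was well short of the lowest minus value. The group means were 3958 ± 428 in the plus and 7420 ± 248 in the minus libraries (SD, n = 2 each), which is 46.7% lower. On the log2 scale it differed by −0.91 (SE 0.09). Without the mean-variance trend of the limma fit this SE was 0.136.

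**Figure D1:**
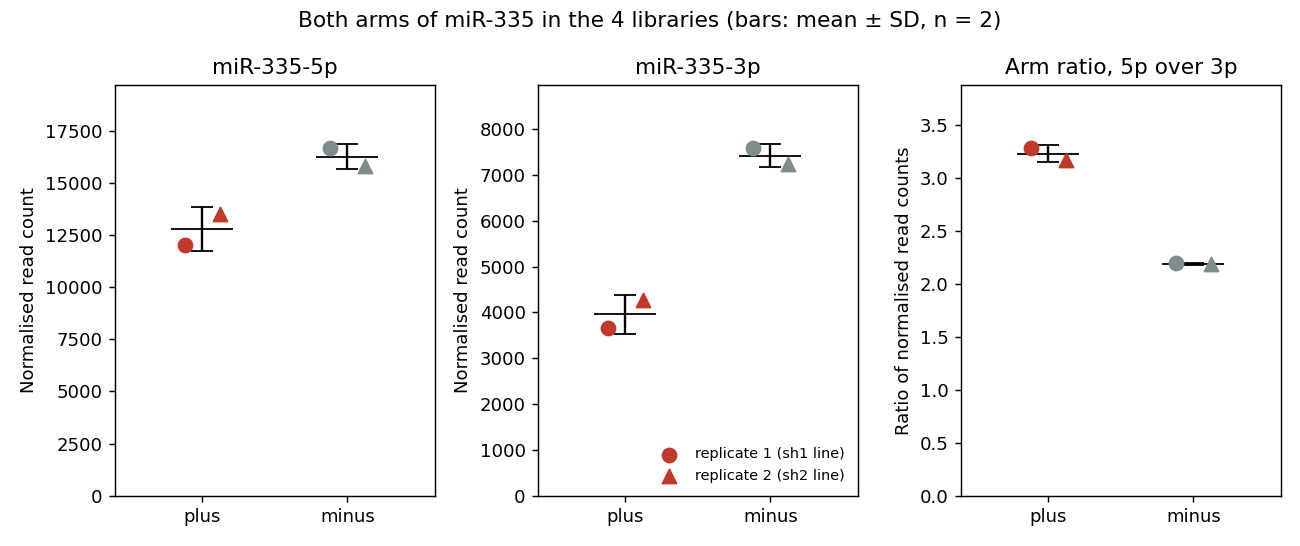
Normalised read count of miR-335-5p (left) and miR-335-3p (centre) and the ratio of the arms (right) in each plus (red) and minus (grey) library, with circles for replicate 1, triangles for replicate 2, and bars for the mean ± SD of 2 libraries. Both arms lie lower in the plus libraries, and the ratio lies higher, at 3.29 and 3.17 against 2.20 and 2.18.

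Both arms are among the common miRNAs of these cells, and both stood lower in the order of abundance in the plus libraries. Among all 1345 rows, miR-335-5p ranked 70 and 69 in plus replicates 1 and 2 and 62 in both minus libraries. miR-335-3p ranked 112 and 107 in plus replicates 1 and 2, against 85 and 84 in minus replicates 1 and 2. In counts per 1000000 of the library total (CPM), miR-335-5p made up 1222 and 1285 in the plus and 1694 and 1631 in the minus libraries. miR-335-3p made up 372 and 405.1 CPM in the plus and 771 and 747 in the minus libraries. Counting error is small at these levels: the widest 95% exact binomial interval, that of miR-335-5p in minus replicate 1, ran from 1668 to 1720 CPM. These intervals rest on reads estimated from the values, cover counting error only, and are far narrower than the distance between the groups.

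The change was set against that of all miRNAs in 1 fit, limma on log2(value + 1) with Benjamini-Hochberg adjustment over the 709 miRNAs averaging at least 10 normalised counts. Both arms of miR-335 were among the falls called at an adjusted p of 0.05, which were 107 of 709, or 15.1%. Over the 190 miRNAs averaging at least 1000, where both arms lie, the falls were 37, or 19.5%. Because the arms were chosen with this contrast known, nothing is read from their 2 calls. The median log2 change was −0.03 over the 709 and 0.06 over the 190.

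The arms held different places when all changes were ranked. miR-335-3p had the second lowest log2 change, rank 2 of the 190 miRNAs averaging at least 1000, next to miR-3613-5p at −0.93 just below it and miR-19a-3p, of the miR-17-92 cluster, at −0.75 just above. miR-335-5p ranked 22 of the 190. Over all 709 miRNAs, 3.10% had a lower log2 change than miR-335-3p and 24.0% had a lower one than miR-335-5p. The call of miR-335-5p did not stand in fits without plus replicate 1, plus replicate 2 or minus replicate 1, where its log2 change was −0.27, −0.44 and −0.31. With 1 library left out, the log2 change of miR-335-3p ranged from −1.02 to −0.80. Without the level filter, and likewise without the mean-variance trend, neither call stood, and there the log2 changes of −0.35 and −0.91 were as in the reported fit.

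The stromal and endothelial list was the list of another cell type whose summed level was lower in the plus libraries, at 18088 and 21079 against 21795 and 21701 in the minus libraries. Of its 5 tested strands, 2 fell and 1 rose, where 15.1% of all 709 fell and 13.4% rose. miR-145-5p fell (log2 change −0.29), miR-143-3p rose (0.29) and miR-126-3p was at −0.13 and did not pass. With any library left out, or under quantile normalization, both calls were lost. Both were also lost without the level filter and without the mean-variance trend. None of the list's 6 strands is at 0, and their part in the values of miR-335 was not tested.

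The arms did not change by the same amount, and the 5p strand outweighed the 3p strand further in the plus libraries. The ratio of miR-335-5p to miR-335-3p was 3.29 and 3.17 in plus replicates 1 and 2, against 2.20 and 2.18 in minus replicates 1 and 2. The ratio differed less between the lines than between the groups, and the minus libraries were nearly equal. Its mean was 3.23 ± 0.08 in the plus and 2.19 ± 0.0088 in the minus libraries (SD, n = 2 each). A ratio within a library also carries the efficiency with which each sequence is captured, which was not measured.

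Expressed as a share of the reads of both arms, miR-335-3p made up 23.3% (95% exact binomial interval 22.7% to 24.0%) in plus replicate 1 and 24.0% (23.3% to 24.6%) in plus replicate 2. Its share was 31.3% (30.7% to 31.9%) in minus replicate 1 and 31.4% (30.8% to 31.99%) in minus replicate 2. These intervals cover counting error only and not the spread between libraries. They overlap within each group and not between groups, for an arm ratio that was chosen with its values known. On the log2 scale the arm ratio was 0.56 higher in the plus libraries, by 0.58 in the sh1 line and 0.54 in the sh2 line. The arms together summed to 15670 and 17775 normalised counts in the plus libraries, against 24280 and 23069 in the minus libraries, a mean that was 0.706 times as high.

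The arm ratio was also taken for the 183 hairpin names with both arms tested. The plus values did not overlap the minus values in 94 of them, or 51.4%, so an arm ratio that separates the groups is no property of miR-335 alone. The size of the change was 0.21 on the log2 scale at the median hairpin and 0.62 at the 90th percentile, and 25 of the 183, or 13.7%, changed at least as much as miR-335. Of the 24 larger changes, 19 were of hairpins whose lower arm averaged under 100. Over the 35 hairpins with both arms at a mean of at least 1000, the median size was 0.17, and that of miR-335 was the largest.

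The order at the top of these 35 hairpins is not settled by 4 libraries. miR-27a followed at −0.50, in the direction of its 3p strand, and let-7a at 0.47. Without plus replicate 1 the change of let-7a, at 0.55, was larger than that of miR-335, at 0.53. Without plus replicate 2 miR-27a was larger, at −0.70 against 0.59 for miR-335. Without minus replicate 2 miR-335 ranked 3 at 0.56, with miR-18a at −0.60, and under quantile normalization it ranked 6 at 0.41, with miR-361 at −0.55.

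**Figure D2:**
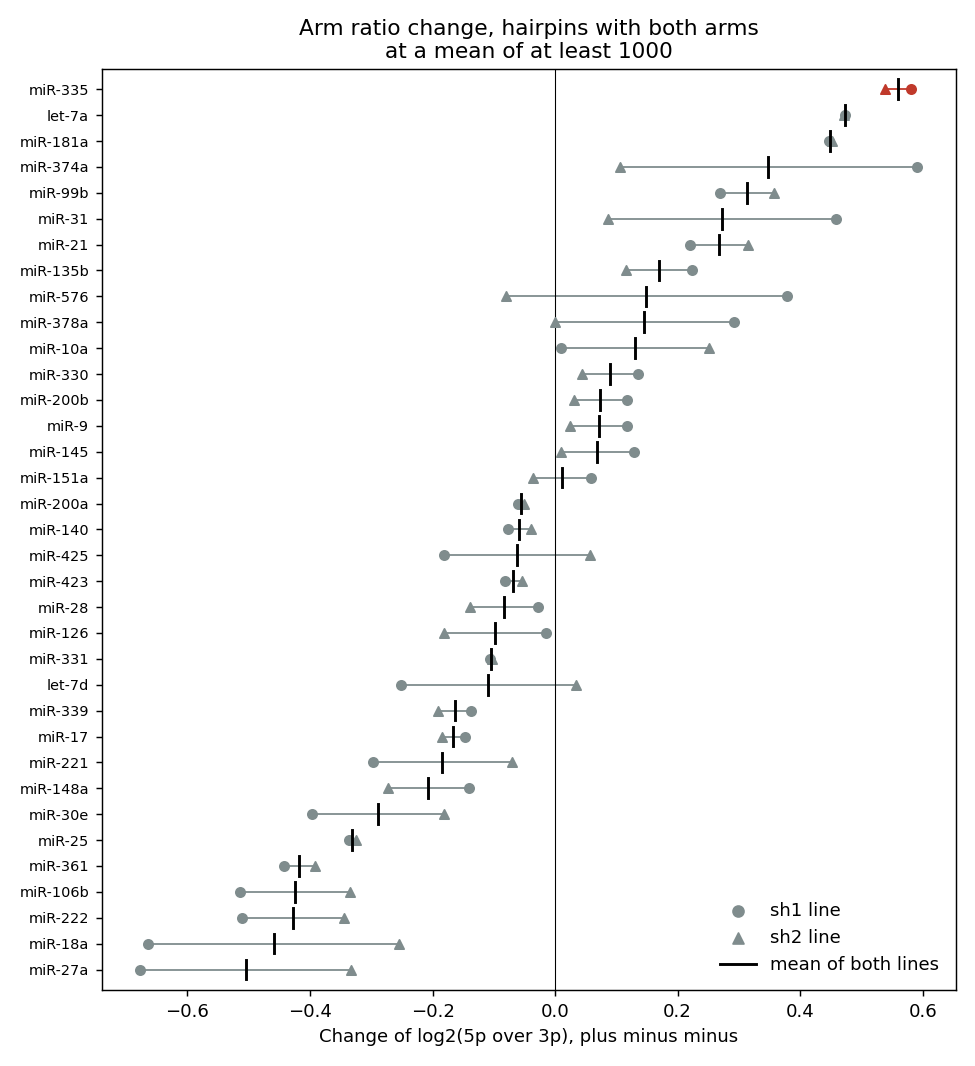
Change of the log2 ratio of 5p over 3p, plus minus minus, for the 35 hairpins with both arms at a mean of at least 1000, with circles for the sh1 line, triangles for the sh2 line and black bars for the mean of both lines. miR-335 (red) lies at the top at 0.56, with 0.58 and 0.54 in the lines, and miR-27a at the bottom at −0.50.

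A fall was called in both arms of 10 of the 183 hairpins, or 5.46%, where 15.1% of all 709 tested miRNAs fell. Of these hairpins, 3 were among the 35 with both arms at a mean of at least 1000. Beside miR-335 these were miR-145, at −0.29 for its 5p and −0.36 for its 3p strand, and miR-148a, at −0.50 for its 5p and −0.29 for its 3p strand. In 66 of the 183 hairpins a single arm was called, in 14 both arms rose, in 1 the arms were called in opposite directions, and in 92 neither arm was called.

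The design uses independent shRNAs, and within each line the change rests on 1 plus and 1 minus library, with no test. In the sh1 line miR-335-5p stood at 12015 in the plus against 16684 in the minus library, a ratio of 0.720 (95% counting interval 0.703 to 0.738). In the sh2 line it stood at 13514 in the plus against 15824 in the minus library, a ratio of 0.854 (0.835 to 0.874). Both lines had the lower value in the plus library, and the ratio was lower in sh1.

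miR-335-3p showed the same order of the lines. Its ratio was 0.481 (95% counting interval 0.462 to 0.501) in the sh1 line, from 3655 in the plus and 7596 in the minus library. In the sh2 line it was 0.588 (0.566 to 0.611), from 4261 in the plus and 7245 in the minus library. On the log2 scale the sh1 change was lower than the sh2 change by 0.25 for miR-335-5p and by 0.29 for miR-335-3p, which are differences between lines that cannot be tested. They depend on the scaling, at 0.13 and 0.17 with equal totals, 0.21 and 0.25 under median-ratio scaling, and 0.053 and 0.14 under quantile normalization. Under each of these the change was still the lower one in sh1.

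Other miRNAs also differed between the lines, by amounts that move with the scaling. Of the 37 miRNAs that fell and averaged at least 1000, 33 had a lower log2 change in the sh1 than in the sh2 line. Of the 51 that rose at this level, 31 also had a lower log2 change in sh1. With equal totals these counts were 26 of 37 and 12 of 51, and under quantile normalization 26 of 37 and 18 of 51. Over the 190 miRNAs the log2 changes of the lines differed by 0.11 at the median, and 18.4% differed by more than miR-335-5p and 13.2% by more than miR-335-3p.

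**Figure D3:**
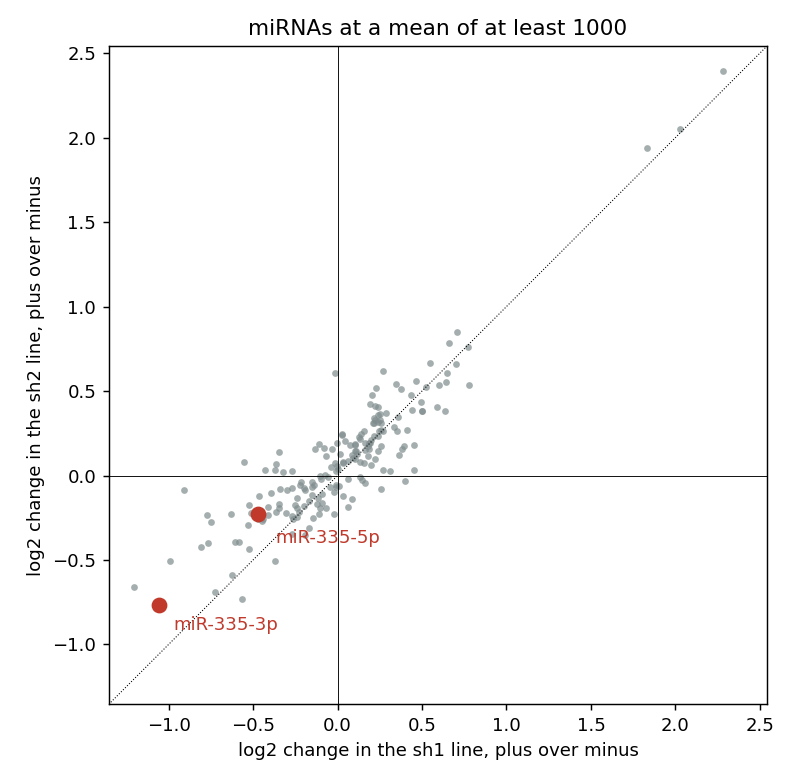
Log2 change, plus over minus, in the sh1 line (horizontal) and the sh2 line (vertical) of the 190 miRNAs averaging at least 1000, with a dotted line where the lines are equal. miR-335-5p lies at −0.47 and −0.23 and miR-335-3p at −1.06 and −0.77, both below 0 in both lines and on the side of a larger fall in sh1.

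The profiles over the 4 libraries were compared with those of the 708 other tested miRNAs by the Euclidean distance between log2(value + 1), each centred on its own mean. The nearest to miR-335-5p were miR-3158-3p at a distance of 0.023, miR-20a-5p at 0.037, miR-7-5p at 0.052, miR-17-5p at 0.063 and miR-576-3p at 0.067. miR-17-5p and miR-20a-5p come from the miR-17-92 cluster, a target of the oncoprotein MYC, and miR-7-5p is among the most abundant miRNAs of these cells. miR-20a-5p stood at 53308 and 61969 in plus replicates 1 and 2, against 75986 and 72202 in minus replicates 1 and 2.

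The nearest to miR-335-3p were other miRNAs. They were miR-452-3p at 0.095, miR-3128 at 0.146, miR-1293 at 0.187, miR-548b-5p at 0.189 and miR-3613-5p at 0.205. miR-452-3p, from an intron of the GABA receptor gene GABRE, stood at 199 and 233 in plus replicates 1 and 2, against 411 and 366 in minus replicates 1 and 2. miR-3613-5p stood at 1814 and 2070 in the plus against 4179 and 3269 in the minus libraries. The arms of miR-335 lay 0.56 apart, which put miR-335-3p at place 389 in the order from miR-335-5p and miR-335-5p at place 124 in the order from miR-335-3p. With 4 libraries such a distance holds little more than the size of the change and the order of the lines.

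On chromosome 7 other miRNA hairpins lie on the opposite strand on either side of MIR335, among them MIR29A and MIR29B1 381 kb away and MIR96 and MIR182 721 and 726 kb away (RefSeq, GRCh38.p14). Of the 9 tested strands listed for this stretch of 7q32, 3 rose, 2 fell and 4 did not pass, where 13.4% of all tested rose and 15.1% fell. Their median log2 change was 0.16, and that of all tested was −0.03. The rises were the main strands of the miR-183 cluster, with miR-182-5p at 0.63, miR-96-5p at 0.51 and miR-183-5p at 0.31 (limma adjusted p = 4.48e-08, 3.05e-06 and 0.00288). The call of miR-183-5p was lost under quantile normalization and with any library left out, and those of miR-182-5p and miR-96-5p without either plus library. All 3 calls were also lost without the level filter and without the mean-variance trend. The minor strands miR-182-3p at −0.02 and miR-183-3p at 0.16 did not pass.

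The miR-29 strands divided by arm. miR-29a-5p stood at 300.2 and 307.5 in the plus against 394 and 392.1 in the minus libraries, and miR-29b-1-5p at 169 and 181 against 229.8 and 240.1. Both minor strands fell, with log2 changes of −0.37 and −0.43 (limma adjusted p = 0.0438 and 0.0448). Both calls were lost under median-ratio scaling, under quantile normalization and with any library left out. Neither call stood without the level filter or without the mean-variance trend. The main strands did not pass, with miR-29a-3p at 0.03 and miR-29b-3p, which a further copy on another chromosome also yields, at 0.17. miR-96-3p, miR-129-5p and miR-129-1-3p, with group means of at most 10.7, were below the level tested.

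The 5 tested strands of the H19, IGF2 and GNAS loci did not pass, also at an unadjusted p under 0.05 in the limma fit, with a median log2 change of 0.22. miR-675-5p and miR-675-3p, from H19, were at 0.13 and 0.25, miR-483-5p and miR-483-3p, from IGF2, at 0.18 and 0.22, and miR-296-3p, from the GNAS locus, at 0.57. miR-296-5p, at 9.21 in the plus and 6.34 in the minus libraries, was below the level tested. These strands are far less abundant than miR-335, with miR-483-3p highest at 268 and 208 in the plus and 212 and 194 in the minus libraries.

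In the imprinted cluster on 14q32, 2 of 29 tested strands rose, 27 did not pass and 0 fell, where 13.4% of all tested rose and 15.1% fell, and the median was 0.36. At an unadjusted p under 0.05 in the same limma fit, 6 rose and 0 fell. The 3 most abundant did not pass: miR-411-5p was at 0.37, miR-379-5p at 0.36 and miR-889 at 0.24. Even miR-411-5p averaged only 163 normalised counts over all libraries. Its SE was 0.18, against 0.09 for each arm of miR-335, and at such levels a change of a given size is less readily called. None of the 23 strands of the imprinted cluster on chromosome 19 reached the level tested, and 18 of them had fewer than 3 estimated reads in each library. The arms of miR-335, at −0.35 and −0.91, lay below the median of each of the imprinted lists with tested strands, as a comparison of values and not a test.

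Among strands of other hairpins within introns of protein-coding genes, 12 of 68 rose, 9 fell and 47 did not pass, shares near the 13.4% and 15.1% of all tested, with a median of −0.02 and a range from −0.97 to 0.99. The 3 most abundant, miR-186-5p at 0.14, miR-425-5p at −0.11 and miR-191-5p at 0.11, did not pass. Of 18 strands listed with miR-335 as suppressors of metastasis, 7 rose, 11 did not pass and 0 fell, where 13.4% of all tested rose and 15.1% fell. Their median was 0.21, and at an unadjusted p under 0.05 in the limma fit 10 rose and 1 fell. The list counts the minor strands of its hairpins too, and a role in metastasis was not tested in these cells. Of the 3 most abundant, miR-31-5p at 0.10 and miR-200c-3p at 0.13 did not pass, and miR-200b-3p rose at 0.28 (limma adjusted p = 0.00729), a call lost with any library left out. The call of miR-200b-3p was also lost without the level filter and without the mean-variance trend.

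**Figure D4:**
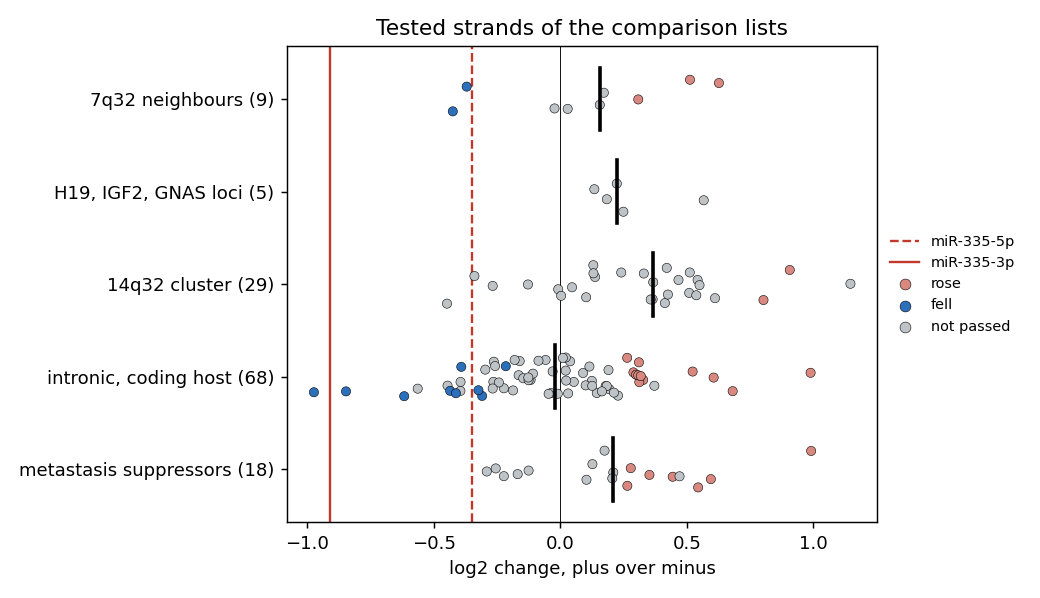
Log2 change (plus over minus) for the tested members of 5 lists (number in parentheses), rises being pink, falls blue and the rest grey, and a black bar at the list median. The vertical red lines mark miR-335-5p (dashed) at −0.35 and miR-335-3p (solid) at −0.91, left of the medians of the 5 lists, which run from −0.02 to 0.36.

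Across the 550 tested strands with a sequence, the share of G and C and the log2 change had a Spearman correlation of 0.16 and a Pearson correlation of 0.15. These strands share 4 libraries and are not independent, so the values describe the table only. Of them, 4.36% were as poor in G and C as miR-335-5p or poorer, and 18.9% as poor as miR-335-3p or poorer. The arms hold 7 and 8 such bases, too close for their order to be set against that of the changes. A link between this content and the changes of the arms was not tested.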

How the data were processed

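Small-RNA libraries of 2 plus and 2 minus cultures were compared. For each mature miRNA the authors deposited a signal, which by its values is a read count brought to a common library size. Per the labels, reads were trimmed with cutadapt. The submitters' processing notes name TopHat2 2.0.8b, edgeR, hg19 and GRCh37 with no role. The counter and the annotation of miRNAs are not given in the sources used. Column names write sh4 where titles write sh2, and columns were matched by library number and index.

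The worth of 1 read, estimated from low values, was 1.03 and 1.02 in plus replicates 1 and 2 and 1.01 and 0.945 in minus replicates 1 and 2. It gave 9570691, 10297804, 9769376 and 10265049 reads in that order. Values under 60 came within 0.1 of whole reads for 85.1% to 100% of them, by library, too few for a count model. Intervals are 95% exact binomial (Clopper-Pearson). Chi-square per degree of freedom was 67.0 between the plus and 19.8 between the minus libraries, so no library is a copy of another.

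log2(value + 1) was fitted with limma 3.58.1 (R 4.3.3), two-sided and with a mean-variance trend, over 709 miRNAs with a mean of at least 10, with 2 residual and 43.0 prior degrees of freedom. A fold change on this scale understates the change of low miRNAs. An exact permutation test of 2 against 2 cannot give a p under 0.333 and was not used. The libraries pair by shRNA line, from the labels and for plus replicate 1 by elimination. The deviations of the lines correlated at 0.056 between plus and minus over the 709 miRNAs and at 0.18 over those averaging at least 1000. Folding used RNAfold 2.7.2, and 1078 of 1345 names matched the RefSeq table. The values of 307 rows are identical to another row's, and the arms of miR-335 are not among these rows.

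The arms and the lists were chosen with earlier results of these data known. Named were both arms, every strand of the 7q32 and the H19, IGF2 and GNAS lists, the 3 most abundant tested strands of each other list, and the 5 nearest profiles per arm. Hairpins and miRNAs named beside the arms in the ranking of changes and of arm ratios were chosen after their values were seen. The same holds for the epithelial strands named beyond the most abundant. The alternatives were other pseudocounts, level filters and scalings, no trend, the line as a block, and each library left out. The counts of changes by line under other scalings were added after seeing the data.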

Additional observations from a re-analysis of the deposited data

Results flagged for a closer look

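For 8 strands named above the lines moved in opposite directions, and the difference between the lines was not tested, since each line has 1 library per condition. The log2 change was −0.063 in the sh1 and 0.27 in the sh2 line for miR-122-5p, and −0.017 and 0.60 for miR-143-3p. It was 0.11 in the sh1 and −0.15 in the sh2 line for miR-182-3p, and 0.32 and −0.0044 for miR-183-3p. It was −0.016 in the sh1 and 0.074 in the sh2 line for miR-29a-3p, and 0.11 and −0.023 for miR-486-5p. For the H19 strands it was −0.0046 in the sh1 and 0.50 in the sh2 line for miR-675-3p, and −0.049 and 0.32 for miR-675-5p. Neither arm of miR-335 is among them.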

How the results depend on the processing

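The direction of both arms was the same in each of the 13 alternatives, all of which reuse the same libraries. The level filters, the trend and the line block leave the log2 change of an arm as it is, so they could not alter its direction. For both arms the plus and minus values do not overlap, so leaving out 1 library could not reverse it either. With the line as a replicate block, the log2 changes were −0.35 and −0.91 and 103 miRNAs rose and 113 fell, and no call of an arm changed. The 95 rises and 107 falls became 47 and 54 under quantile normalization. With no level filter and with no mean-variance trend they were 5 and 0 each, limma's counts at an unadjusted p under 0.05 being 152 and 159 without the filter and 95 and 124 without the trend, and both arms missed the threshold at −0.35 for miR-335-5p and −0.91 for miR-335-3p. With 1 library left out, rises ranged from 6 to 57, falls from 1 to 59, the log2 change of miR-335-5p from −0.44 to −0.27, that of miR-335-3p from −1.02 to −0.80 and that of the arm ratio from 0.53 to 0.59. The lone library of a group is then assumed to vary like the others. The change of the arm ratio was 0.41 under quantile normalization, where values are set by rank. Within the sh1 line miR-335-5p was at −0.41 under median-ratio scaling and −0.54 under quantile normalization, and miR-335-3p at −0.995 and −0.989. Within the sh2 line miR-335-5p was at −0.34 with equal totals and −0.49 under quantile normalization, and miR-335-3p at −0.88 and −0.85. The cause of these shifts was not tested. Counting error is small at the level of the arms of miR-335, and each group holds 2 libraries.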

Other observations

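In hairpins with a fall in both arms, the less abundant arm was usually the one with the lower log2 change. This held in 9 of the 10 such hairpins, miR-335 included, and the exception was miR-548av. A low arm needs a larger change to be called, so these 10 hairpins are chosen in part for this order. Over all 183 hairpins with both arms tested, called or not, the less abundant arm had the lower log2 change in 105, with a median difference of −0.06. Over the 35 with both arms at a mean of at least 1000 it did so in 22, with a median difference of −0.07, against −0.56 for miR-335.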
